A study of Mus musculus with 62 samples.

Results

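Regions marked by H3K27ac or H3K4me2 around the genes of the MEF2 transcription factors (Mef2a, Mef2b, Mef2c and Mef2d) and of the class II histone deacetylases that bind them (Hdac4, Hdac5, Hdac7 and Hdac9) were compared across muscles, after exercise and with Pgc1a overexpression. A region was taken for a gene when the authors' annotation, which names the nearest transcription start site, gave one of these 8 names. Across 16 histone mark lists and 4 lists of differential H3K27ac regions, 938 of 601616 regions carried one. H3K27ac lists held 477 of 297760 and H3K4me2 lists 455 of 298522. The gene names say nothing of which gene a distal region controls, and no RNA level was used here.

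MEF2 proteins bind an AT-rich element at many genes of the contractile apparatus and of oxidative metabolism. The class II deacetylases dock on MEF2 in the nucleus and repress its targets until kinases that respond to calcium phosphorylate them, which sends them to the cytoplasm. In muscle this switch is known for its part in differentiation, in slow fiber genes and in the answer to activity. Mef2b is the least used member of its family in adult muscle, and Hdac7 is best known from endothelium.

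The labels give the strain C57BL/6 for every sample, and the methods name male mice, the transgenic and wild-type littermates among them. EDL (extensor digitorum longus, fast glycolytic), Quad (quadriceps, mixed), Sol (soleus, slow oxidative) and Dia (diaphragm) came from sedentary wild-type animals. Quad was also taken from caged mice without a wheel (Sed), from mice that ran voluntarily on wheels for weeks and were killed hours after the last bout (Ex), from wild-type littermates (Wt) and from PGC1a Tg(+) mice (mTg), in which the muscle creatine kinase promoter drives the coactivator gene Pgc1a constitutively. H3K27ac marks active enhancers and promoters, and H3K4me2 marks enhancers and promoters whether active or poised. Each mark had 2 libraries in each of the 8 groups. A Quad library was 1 muscle of 1 mouse, while EDL, Sol and Dia libraries pooled animals. Whole muscle was used, so fewer cells of a type and less mark per cell cannot be told apart.

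Depth was 11.7 to 24.2 M tags in the H3K27ac libraries and 6.41 to 22.7 M in the H3K4me2 libraries. Of 7 markers of muscle fibers, 5 to 7 had an H3K27ac region in each list, and the median percentile of their best regions was 79.6 to 97.9. The 5 endothelial markers also had regions in every list (51.8 to 81.3), as did the 4 fibroblast markers (50.8 to 81.5), whereas 0 to 2 of 3 lymphocyte markers and 3 to 4 of 4 macrophage markers did. A peak over an inner exon of Ppargc1a, the gene the transgene carries, lay in the list labelled Wt for H3K4me2 (exon 8 of 13, log2 levels 5.22 and 5.50) and not in that labelled mTg. For H3K27ac such a peak lay in mTg (exon 2 of 13, 4.03 and 3.30) and not in Wt. The H3K4me2 data of this contrast are therefore given throughout as the libraries labelled Wt and mTg, with no direction drawn from them.

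Sequences are shown first for the sites at which a MEF2 protein could bind these genes themselves. The element searched, called the MEF2 word here, is CTA, then 4 bases that are each A or T, then TAG, on either strand. Of 50 accessible sites of Quad that lay in the genes' Quad H3K27ac regions, 4 held the MEF2 word within a window of 300 bp around their centre (8%), against 2.92% of all 27658 such windows. Of 14 promoters of the 8 genes (250 bases before each RefSeq start, build GRCm38.p6), 1 held it (7.14%), against 0.508% of 32851 promoters. With 4 windows and 1 promoter behind them, these shares were given no test. The promoter was that of Hdac5, and the 3 windows shown lay in introns 2 and 4 of Mef2c and about 90 kb upstream of Hdac4. The capitals mark the MEF2 word, and all windows are on the plus strand of mm10 while the promoter is on the minus strand.
Hdac5 promoter, chr11:102230173-102230422, minus strand: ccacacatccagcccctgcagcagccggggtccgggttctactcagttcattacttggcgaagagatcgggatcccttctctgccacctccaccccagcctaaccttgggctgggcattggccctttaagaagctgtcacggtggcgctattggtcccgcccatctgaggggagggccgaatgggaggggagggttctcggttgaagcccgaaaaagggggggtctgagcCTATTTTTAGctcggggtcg
Mef2c +62 kb, chr13:83565783-83566082, plus strand: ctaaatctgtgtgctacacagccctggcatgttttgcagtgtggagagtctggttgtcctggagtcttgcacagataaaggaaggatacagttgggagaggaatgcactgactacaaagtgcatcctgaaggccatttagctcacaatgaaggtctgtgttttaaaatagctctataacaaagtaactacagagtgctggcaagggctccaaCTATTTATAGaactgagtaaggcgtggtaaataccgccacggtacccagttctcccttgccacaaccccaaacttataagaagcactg
Mef2c +99 kb, chr13:83603884-83604183, plus strand: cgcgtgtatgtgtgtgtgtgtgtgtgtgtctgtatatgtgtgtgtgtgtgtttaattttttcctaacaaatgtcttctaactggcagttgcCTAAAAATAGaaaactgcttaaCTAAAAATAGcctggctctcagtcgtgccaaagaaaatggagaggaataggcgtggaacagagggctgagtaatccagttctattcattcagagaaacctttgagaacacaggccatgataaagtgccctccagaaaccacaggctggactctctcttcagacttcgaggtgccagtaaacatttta
Hdac4 upstream, chr1:92270592-92270891, plus strand: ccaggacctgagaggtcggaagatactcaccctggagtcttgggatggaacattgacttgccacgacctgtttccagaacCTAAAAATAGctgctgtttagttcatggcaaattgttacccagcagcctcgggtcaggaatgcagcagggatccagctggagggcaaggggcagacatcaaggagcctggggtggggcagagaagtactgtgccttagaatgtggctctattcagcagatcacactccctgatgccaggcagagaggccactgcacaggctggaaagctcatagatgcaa

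The Hdac5 promoter, printed on the minus strand, held CTATTTTTAG, which reads CTAAAAATAG on the plus strand. That is the word of the Mef2c +99 kb and Hdac4 windows. The word at the Mef2c +62 kb site, CTATTTATAG, differed from it in the inner bases. The Mef2c +99 kb window held 2 copies of CTAAAAATAG, and the Hdac4 window held 1. With windows of 200 bp the same number of sites, 4, held the word.

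The 4 other words were counted in the same windows. The E-box of the myogenic factors, CAGCTG, stood in 18 of the 50 windows (36%, against 27.3% of all), and the TEAD word CATTCC in 9 (18%, against 16.5%). The ERR word TCAAGGTCA was in 0 of 50, against 0.492% of all, and the AP-1 word (TGA, C or G, TCA) was also in 0, against 9.94%. In the promoters the E-box stood in 2 of 14, both of Hdac9 (13% of all promoters), and the TEAD word in 3 of 14, at 2 starts of Hdac7 and 1 of Mef2c (12.6% of all). The promoters differed in base composition: G and C made up 73.2% at Mef2d, 65.2% at Hdac4, 61.6% at Mef2a and 60.8% at Hdac5, but 33.6% at the first start of Mef2c, with a median of 52.4% over all promoters.

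Over the 8 lists together, Mef2c had the most H3K27ac regions of the MEF2 genes (131, against 86 for Mef2a), and Hdac4 the most of the deacetylases (136). In Ex Mef2a had more than Mef2c (11 against 8), and in mTg both had 12. In the lists of EDL, Quad, Sol and Dia, Mef2c had 19, 23, 15 and 12 regions, and in Sed, Ex, Wt and mTg it had 14, 8, 28 and 12. Hdac4 had 16, 21, 18 and 14 in the muscles and 14, 10, 28 and 15 in the other groups. In Quad 30 genes had more regions than Mef2c and 49 had more than Hdac4, and the mean was 2.96 regions per gene. Mef2a had 9 to 13 regions in a list, Hdac9 4 to 10, Hdac7 3 to 6 and Mef2d 2 to 4. Hdac5 had 1 region, in Ex alone, and Mef2b had 0.

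**Figure D1:**
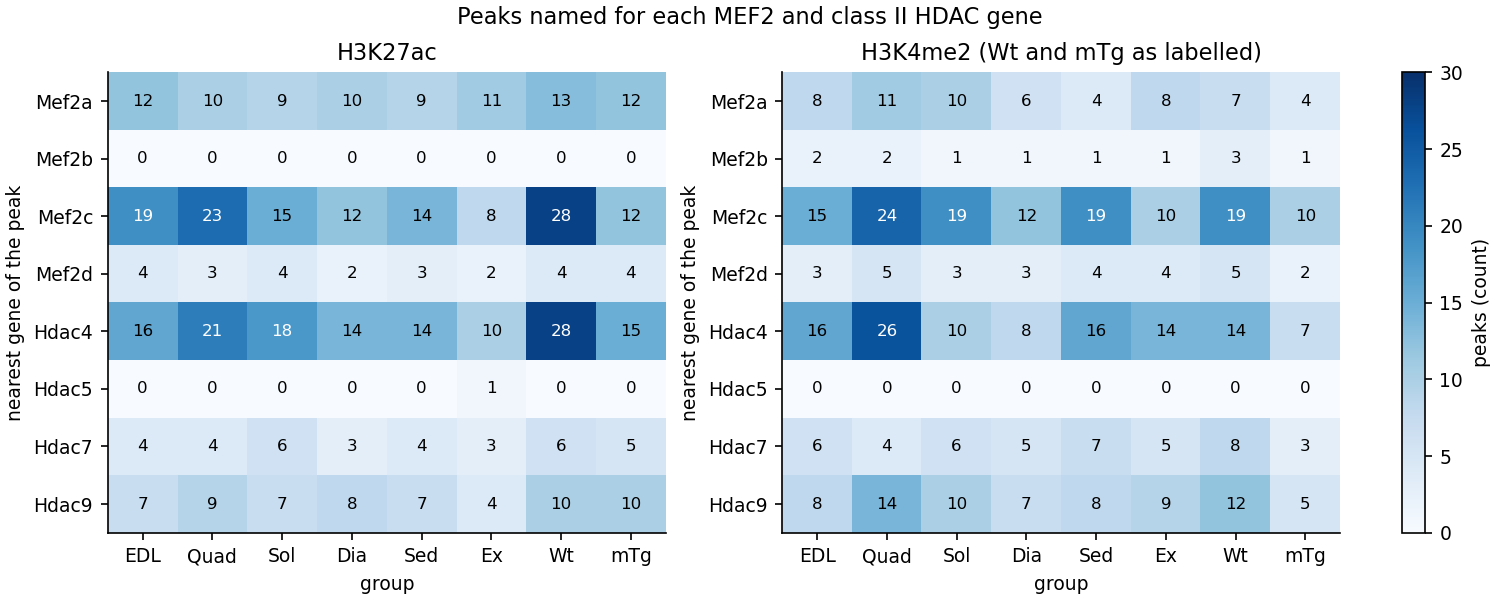
Number of peaks named for each gene (rows) in each group (columns), for H3K27ac on the left and H3K4me2 on the right, with the count printed in each cell. Over the 8 lists Mef2c and Hdac4 hold the most regions for H3K27ac, up to 28 in Wt, while Mef2b and Hdac5 hold 0 and 1 in all.

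Ex had the fewest H3K27ac regions for these genes (39) and Wt the most (89). Part of that order followed the lists, since Wt held 49010 regions in all, but Ex with 34572 held more than Sed (34031), in which the genes had 51. With every list cut to its strongest 33106 regions, Wt had 54, below EDL and Quad (58 each) and Sol (56), and Ex still had the fewest (38). Each list was 1 call over both libraries of its group, so these counts have no replicate spread. For H3K4me2 the order of the genes was much the same, with 128 regions for Mef2c, 111 for Hdac4, 73 for Hdac9, 58 for Mef2a, 44 for Hdac7, 29 for Mef2d, 12 for Mef2b and 0 for Hdac5 over the 8 lists. The list labelled mTg had the fewest for these genes (32) and Quad the most (86).

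Most H3K27ac regions of the genes lay away from their start sites. Only 20 of 477 were annotated as promoter, 331 lay within a gene and 126 between genes, and 95.8% were distal by that annotation. Promoter regions were 10.2% to 14% of all regions in these lists. The annotation goes by the centre of a region, and 34 of the 457 distal regions span a start site, that of Mef2c among them in 7 of the 8 lists. Hdac4 was the most spread out, with 81.6% of its regions over 50 kb from the start, followed by Mef2c (53.4%), Mef2a (51.2%) and Hdac9 (50%). No region of Mef2d or Hdac7 lay that far. The regions named for Mef2a lay almost entirely upstream, between genes, and those named for Hdac4 mostly within its introns. This layout depends on the nearest-start rule. Of the 22 H3K27ac regions in the body of Mef2a over the 8 lists, 11 were named for Lysmd4. Of the 140 in the body of Hdac4, 19 were named for Twist2. Neither set is among the counts.

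**Figure D2:**
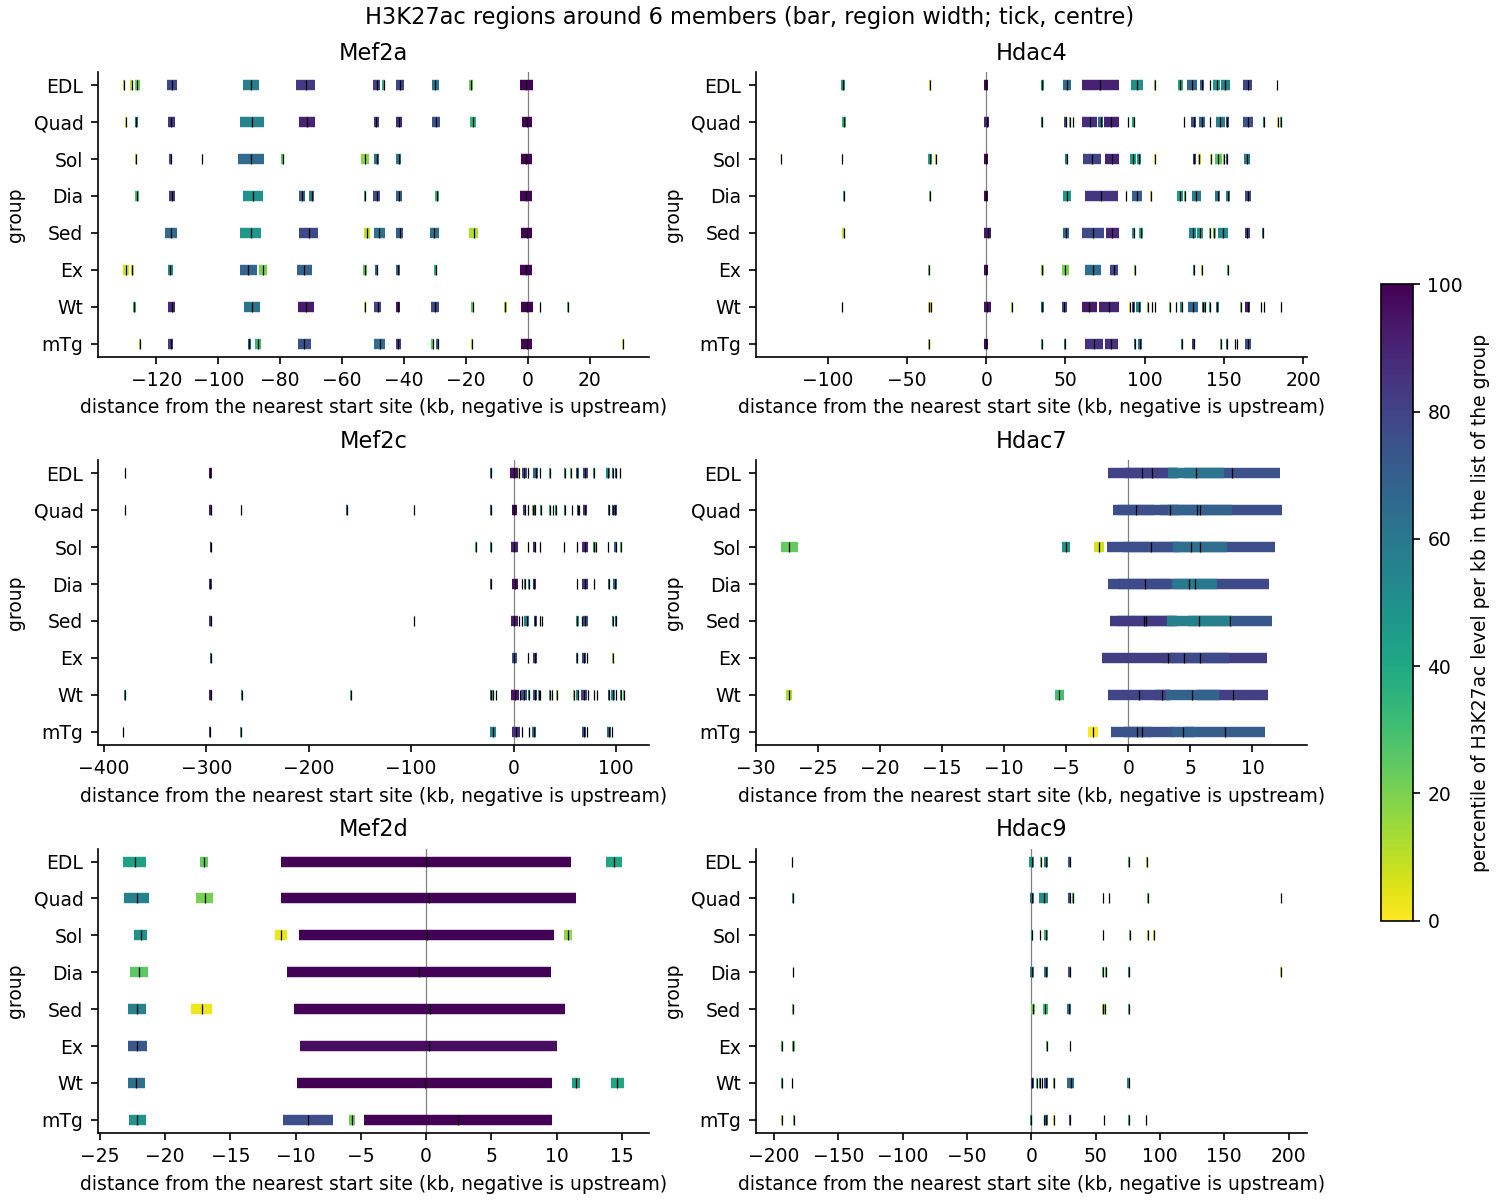
Position of each H3K27ac region relative to the nearest start site of its gene (x axis, kb, negative upstream) in the 8 groups (rows), for 6 genes. Bars show region width and black ticks region centres, and the color gives the percentile of the level per kb in the list. Regions named for Mef2a extend upstream and those named for Hdac4 into the gene to about 180 kb. Mef2d has a broad region over its start in all 8 groups.

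The level of a region is given as log2 tags per kb of its width, on the scale of the deposited values. Because each list was normalized on its own, a region's percentile among all regions of its list is given for comparison across groups. The MEF2 genes come first.

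Mef2a, a MEF2 factor found in most tissues, had a promoter region among the strongest of every list. In Quad it covered chr7:67371576-67374928 at 8.21 and 8.27 in the 2 libraries (99.8th percentile). Its percentile was 99.1 to 99.9 in the 8 groups, and its width 3.35 to 4.15 kb. Upstream, a region 71.5 kb away (Quad chr7:67441762-67446860) had 7.39 and 6.86, at the 89.9th percentile.

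Mef2c, the MEF2 gene with the largest set of regions, had its start within a region of 5.37 to 7.96 kb. In Quad it covered chr13:83501973-83507581 at 8.19 and 7.71 (99.1st percentile). In EDL the levels were 7.89 and 7.99, in Sol 7.33 and 7.01, and in Dia 8.12 and 8.20. The other Quad groups gave 7.44 and 7.45 in Sed, 6.79 and 6.30 in Ex, 7.005 and 6.827 in Wt and 6.74 and 6.64 in mTg. Ex had the lowest percentile of the 8 groups (74.6), against 91.3 in Sed. A region 296 kb upstream (Quad chr13:83206734-83209774) was the strongest distal region in 6 of the 8 groups, at 7.18 and 7.22 in Quad (91.3rd percentile). In Dia and Ex the strongest distal region was instead intronic.

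Mef2d, which gives rise to a muscle-specific splice form, had 1 very broad region over its start. In Quad chr3:88131258-88153852 spanned 22.6 kb at 8.12 and 8.04 (99.5th percentile). EDL had 8.61 and 8.66, Sol 8.10 and 8.03, and Dia 8.68 and 8.68. Sed had 8.13 and 8.11, Ex 7.79 and 7.50, Wt 7.76 and 7.71, and mTg 7.99 and 7.77. The percentile was 96.8 (Ex) to 99.7. In mTg the broad call was shorter (14.4 kb, chr3:88137623-88151992), and a separate region lay upstream of it (chr3:88131419-88135260, 6.42 and 5.98). Over the groups, the strongest Mef2d region away from the start was at percentile 25.5 (Dia) to 76.3 (mTg). Of the 32 H3K27ac regions in the body of Mef2d over the 8 lists, 20 were named for 1700113A16Rik and are not among the counts above.

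Mef2b had 0 H3K27ac regions by name. Its first start lies beside those of Borcs8 and Rfxank, and a region over it (chr8:70138158-70140172 in EDL, 7.11 and 7.34) was present in 7 of 8 groups under other names, with none in Quad. Its 12 H3K4me2 regions included 1 in intron 1 in every list, for example chr8:70158073-70159271 in Quad at 5.83 and 5.83 (52.1st percentile). The percentile of that region was 52.1 to 85.3 in the 8 lists, so its level was near or above the middle of each.

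Among the deacetylases, Hdac4, which represses MEF2 targets in muscle, had a strong promoter region. It measured 7.27 and 6.98 in Quad (chr1:92178479-92181843), 8.39 and 8.18 in EDL, 7.82 and 7.66 in Sol and 8.39 and 8.31 in Dia. Sed had 7.54 and 7.64, Ex 8.01 and 7.33, Wt 6.89 and 6.99, and mTg 7.67 and 7.22. Its percentile was 89.8 (Quad) to 98.7 (EDL). The accessible site in it had an ATAC signal at the 99.9th percentile of the Quad list. A wide region in intron 2 covered 23.3 kb in EDL (chr1:92096662-92119987, 7.72 and 7.52) and 21.2 kb in Dia (7.68 and 7.31). Where Quad had 2 separate calls, the one farther into the gene (chr1:92096739-92105847) had 7.40 and 6.96.

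Hdac5, a deacetylase released from MEF2 by calcium-dependent kinases, was almost lost to the nearest-gene rule. Over the 8 lists its body (chr11:102194432-102230166, minus strand) held 28 H3K27ac regions, of which 24 were named for Mir8101, 3 for G6pc3 and 1 for Hdac5. Of its 32 H3K4me2 regions 25 were named for Mir8101 and 7 for G6pc3. By position a region over the Hdac5 start was present in all 8 groups, at 7.92 and 8.13 in EDL, 7.49 and 7.54 in Quad, 7.47 and 7.39 in Sol and 7.61 and 7.64 in Dia. Sed had 7.13 and 7.32, Ex 7.61 and 7.49, Wt 7.43 and 7.29, and mTg 7.03 and 6.73. The percentile was 86.9 to 98.5. Farther into the gene a region of 8.05 kb (Quad) to 15.97 kb (EDL) was called in every group, at percentile 56.1 (Ex) to 94.4 (Quad). The Hdac5 start thus stood in the upper part of every list, as that of Hdac4 did, although a count by name gives 1 region against 136. Its promoter is the one printed above with a MEF2 word.

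Hdac7, the deacetylase best known from vessels, had a start within a region of 5.03 to 13.6 kb. In the 4 muscles this was an inner start, and no region named for Hdac7 there covered the outer start (chr15:97844502). In Quad chr15:97819398-97832995 had 6.50 and 6.52 (76.1st percentile). The percentile was 74.6 to 82.9 over the groups, a narrower range than that of Mef2c. The strongest Hdac7 region away from a start was at percentile 59.6 (Dia) to 81.3 (Wt). All 31 regions of its body carried its name. The 5 endothelial markers had regions in every list, and their part in the Hdac7 level was not tested.

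Hdac9, whose gene spans 869.5 kb, had a weaker start region than the other deacetylases. The region at its inner start had 6.02 and 5.94 in Quad (chr12:34526933-34529777, 61.3rd percentile) and no counterpart in Ex. Its percentile ranged from 21.2 (Sed) to 73.3 (Wt) in the 7 groups that had it, and in mTg the libraries gave 4.03 and 5.51. A region in intron 2 about 30 kb into the gene was stronger in EDL (6.56 and 7.16) and in Dia (6.69 and 7.43). The 2 libraries of a group were close at these regions in some groups and apart in others.

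**Figure D3:**
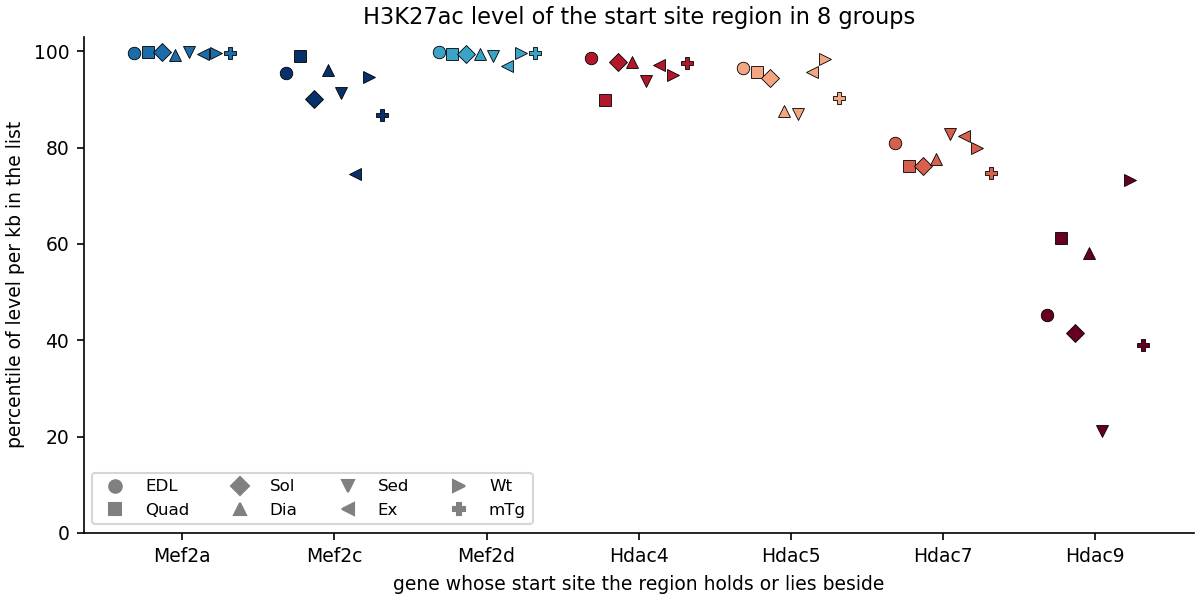
Percentile of the H3K27ac level per kb (y axis) of the region at the start site of 7 genes in the 8 groups (marker shapes). Mef2a, Mef2d and Hdac4 stay near the top in every group, Mef2c reaches its lowest percentile in Ex (74.6), and Hdac9 spreads from 21.2 to 73.3. The Hdac5 region was taken by position, the others by gene name. For Hdac9, and for Hdac7 in the muscles, the start is an inner one.

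The first question of the design was which regions the 4 muscles share. After merging, the genes had 86 H3K27ac regions in the 4 muscles, and 31 were present in all 4 lists (36%), against 37.4% of all regions. Another 29 were in 1 muscle alone (33.7%, against 31.7% of all). Mef2d shared 3 of 4 regions across muscles, Hdac7 3 of 6, Mef2a 6 of 15, Mef2c 9 of 26, Hdac4 8 of 23 and Hdac9 2 of 12. The other 3 regions of Hdac7 were called in Sol alone. For H3K4me2, 25 of 100 were in all 4 lists (25%), against 39.6% of all regions, and 47 were in 1 muscle (47%, against 30.8%). Hdac4 made up much of that gap, with 3 of 32 H3K4me2 regions in all 4 muscles and 13 in Quad alone.

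Regions matched between lists were then compared by level. The difference of log2 level per kb was centred on its median over all matched regions of the pair, and a region was called apart when it differed over 2-fold and the 2 libraries of one group did not overlap those of the other. In the muscles, H3K27ac called 0 of 31 regions of these genes apart between Sol and Quad, against 3.74% of all matched regions. It called 0 of 29 between Dia and Quad (4.27% of all), 0 of 35 between EDL and Quad (0.643%) and 0 of 29 between EDL and Sol (2.88%). With so few regions, a share of 0 is not distinct from those percentages. The 2-fold limit is also strict on the scale of the deposited values. Among the regions the authors listed as hypoacetylated in Ex, the median log2 difference was -0.756 and the 5% quantile -1. A count of 0 therefore does not show that levels were alike.

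The widest differences stayed under 2-fold. Sol was below Quad at a Mef2a region 126 kb upstream (-0.90), at one 42 kb upstream (-0.90) and at the Mef2c start (-0.84). At the Mef2c start the centred levels were 1.01 and 0.68 in Sol and 1.89 and 1.39 in Quad, without overlap. The call there was 7.29 kb wide in Sol and 5.61 kb in Quad, and a wider call can by itself lower the level per kb. Dia was below Quad at a Mef2c region 11 kb into the gene (-0.96) and above it at the Hdac4 promoter (0.76). The Hdac4 promoter call was 2.569 kb wide in Dia, 2.603 kb in EDL and 3.365 kb in Quad. A narrower call can by itself raise the level per kb, so part of these promoter differences may come from width. EDL was above Quad at the Hdac4 promoter (0.82) and above Sol at all 6 matched Hdac4 regions, with a median difference of 0.68 and a range of 0.28 to 0.91. At the largest of those, 106 kb into Hdac4, the libraries of EDL and Sol overlapped. At the region 165 kb into Hdac4 they did not, with 0.62 and 0.42 in EDL and -0.14 and -0.21 in Sol. The fast EDL therefore gave the higher Hdac4 levels of the pair, each by less than 2-fold.

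For H3K4me2, 2 of 30 matched regions were called apart between Sol and Quad, against 1.89% of all. Both were lower in Sol. A region just downstream of the Mef2c start (chr13:83504602-83508407) differed by -1.197, with centred levels of -0.24 and 0.21 in Sol and 1.21 and 1.09 in Quad. A region in Hdac9 (chr12:34516627-34518550) differed by -1.11. The neighboring region that holds the Mef2c start (chr13:83500883-83504074) was not called, with 0.153 and 0.231 in Sol and 0.691 and 0.680 in Quad, a difference of -0.53.

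Exercise was compared with Sed in the same way. Of 17 matched H3K27ac regions 1 was called apart, against 3.17% of all. It lay in intron 2 of Hdac4 (chr1:92128349-92132341) and was lower in Ex by 1.15 on the log2 scale. Its centred levels were -0.705 and -1.582 in Ex and 0.354 and -0.438 in Sed, so the groups did not overlap but each spread widely. The Mef2c start was lower in Ex by 0.80, with 0.32 and 0.01 in Ex and 0.97 and 0.87 in Sed. Hdac5 (0.43) and Hdac7 (0.54) had 1 matched region each, both higher per kb in Ex without passing the limit. The Hdac5 call was 2.0 kb wide in Ex and 3.42 kb in Sed, and a narrower call can by itself raise the level per kb. For H3K4me2, 0 of 26 regions were called apart, against 0.0925% of all, and the matched regions just downstream of the Mef2c start and over it differed by 0.01 and -0.01. Markers of other cells also differed between these lists. The median percentile of the best marker regions was 88.1 in Sed and 79.6 in Ex for muscle fibers, 56.2 and 81.3 for endothelium, 63.7 and 79.6 for fibroblasts, and 11.7 and 34.4 for macrophages (3 and 4 of 4 markers with a region). The part of these in the differences between Ex and Sed was not tested. By qPCR of marker RNA, the paper found the cell makeup of Ex muscle unchanged.

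Between mTg and Wt, 0 of 26 matched H3K27ac regions were called apart, against 4.64% of all. All 4 matched regions of Hdac9 were lower in mTg, with a median of -0.48 and a range of -0.78 to -0.12, and 2 of the 4 had libraries that overlapped between the groups. The largest difference upward was at the Hdac4 promoter (0.57), where the call was 2.43 kb wide in mTg and 4.26 kb in Wt. Levels were divided by width, so a narrower call can by itself raise this value. Between the H3K4me2 libraries labelled mTg and Wt, 0 of 15 were called apart, against 0.724% of all. Cell markers differed between the H3K27ac lists of Wt and mTg as well. The median percentile of their best regions was 71.2 in Wt and 51.8 in mTg for endothelium, 81.5 and 50.8 for fibroblasts. It was 53.0 and 31.3 for macrophages, 56.6 and 28.2 for smooth muscle, 42.1 and 43.0 for satellite cells, and 96.0 and 96.5 for muscle fibers. The part of these was not tested. By qPCR, the paper instead found RNA of macrophage and endothelial markers enriched in mTg muscle.

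The 3 untreated Quad groups show how far lists of like animals differ for H3K27ac, and Quad and Sed show it for H3K4me2. Quad and Sed had 0 of 33 H3K27ac regions apart (1.07% of all), and Quad and Wt 0 of 32 (1.35%). All 11 matched Mef2c regions were higher in Quad than in Wt, with a median of 0.28. The H3K27ac level at the Mef2c start was higher in Quad than in Sed by 0.66 and than in Wt by 0.60, differences nearly as wide as that to Sol. The call there was 5.61 kb wide in Quad, 7.67 kb in Sed and 7.96 kb in Wt. A narrower call can by itself raise the level per kb. For H3K4me2, 1 of 28 was apart between Quad and Sed (0.734% of all), just downstream of the Mef2c start, higher in Quad by 1.09. The region that holds the start differed by 0.744 and was not called. Between Quad and the libraries labelled Wt, 2 of 26 were apart (2.7% of all), a Mef2c region about 160 kb upstream (1.199) and the Mef2b region of intron 1. The latter had centred levels of -0.492 and -0.602 in Quad and 0.742 and 0.635 in the libraries labelled Wt. Since these H3K4me2 labels are in doubt, this pair is not taken as one of like animals. Both comparisons that called the H3K4me2 region downstream of the Mef2c start, Sol with Quad and Quad with Sed, share the Quad libraries, and Quad and Sed are both untreated Quad muscle.

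**Figure D4:**
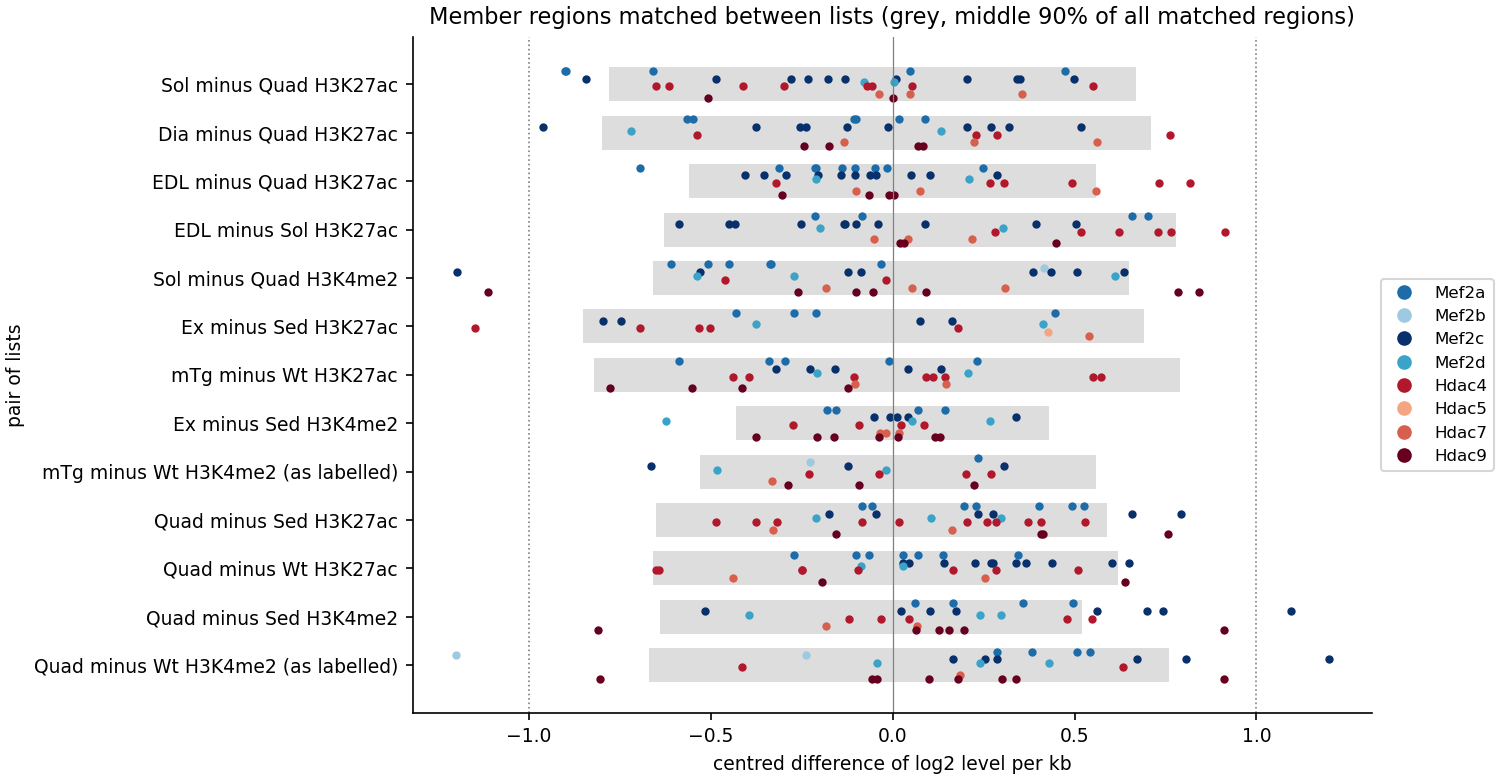
Centred difference of log2 level per kb (x axis) at each matched region of the 8 genes (points, colored by gene) for 13 pairs of lists (rows), with the middle 90% of all matched regions in grey and dotted lines at 2-fold. Few points pass the dotted lines, and the Hdac4 points of EDL minus Sol all lie above 0.

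The authors' lists of differential H3K27ac regions held 6 regions of these genes, all lower than in the control group. In the 55 merged regions of Ex and Sed, 5 overlapped a region listed as hypoacetylated in Ex (9.09%), against 5.43% of all merged regions, and 0 overlapped a hyperacetylated one (0.909% of all). In the 97 merged regions of mTg and Wt, 1 overlapped a hypoacetylated region (1.03%, against 1.51% of all), and 0 a hyperacetylated one (3.27% of all). Within each list the 4 libraries were normalized together, so a test between groups was possible. The authors chose these regions because they differed, which is why nearly every region passed limma at an adjusted p of 0.05: 99.7% of the Ex hypoacetylated list and 100% of the mTg one. The values that follow describe the regions and are no independent evidence.

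At the Mef2c start (chr13:83500957-83508629, 7.67 kb, from the promoter into intron 1) the Sed libraries had 10.24 and 10.12 log2 tags and the Ex libraries 9.45 and 9.21. Both Ex values were below both Sed values. The difference was -0.85 (SE 0.215, limma, adjusted p = 0.000301), which leaves 55.5% of the Sed level on the scale of the deposited values. A Mef2c region 97 kb upstream (chr13:83406342-83407688, intergenic) had 5.33 and 5.28 in Sed and 4.75 and 4.84 in Ex, a difference of -0.51 (limma, adjusted p = 0.018). It was called in 2 of the 8 H3K27ac lists, and 95.7% of the regions of the differential list had a larger drop.

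A Mef2a region 30.2 kb upstream (chr7:67401553-67404573, intergenic) had 8.06 and 7.40 in Sed and 7.16 and 6.68 in Ex. The difference was -0.81 (limma, adjusted p = 0.000457), and the libraries of the groups did not overlap. The Mef2a promoter was in neither differential list.

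In Hdac4 the 2 regions listed for Ex lay deep in the gene. That in intron 4 (chr1:92013588-92017241, 165 kb from the start) had 9.03 and 8.24 in Sed and 7.77 and 7.68 in Ex, a difference of -0.91 (limma, adjusted p = 0.000169). That in intron 3 (chr1:92043494-92047216, 135 kb) had 7.94 and 7.21 in Sed and 6.94 and 6.64 in Ex, a difference of -0.78 (limma, adjusted p = 0.000677). In both the first Sed library was well above the second, and no library of one group passed those of the other. The median difference of all 2280 regions of the list was -0.756, so these drops were of ordinary size for it.

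Another intronic region of Hdac4, in intron 2 (chr1:92129511-92132729, 49.2 kb from the start), was listed as hypoacetylated in mTg. Wt had 7.40 and 7.83 and mTg 7.05 and 6.73, without overlap, a difference of -0.72 (SE 0.149, limma, adjusted p = 0.000179). It covers most of the intron 2 region that was called apart between Ex and Sed above, and the 2 contrasts share no library. That call was lost without Ex library 2 or Sed library 1, and the authors' Ex lists held no intron 2 region of Hdac4. The overlap is therefore given as a description only. It was called in all 8 H3K27ac lists. The Hdac4 promoter was listed in neither contrast.

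**Figure D5:**
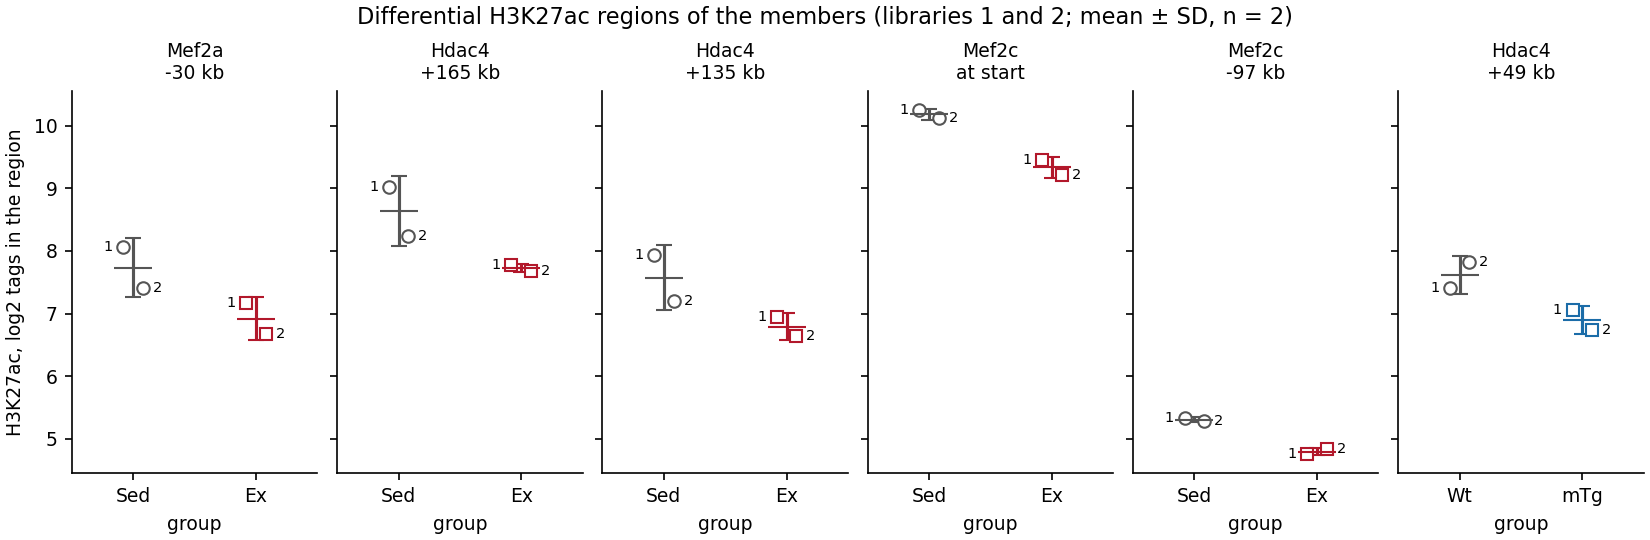
H3K27ac level (y axis, log2 tags in the region) of libraries 1 and 2 of each group at the 6 listed differential regions (panels, with distance from the start), with mean and SD of n = 2. Every treated library lies below both control libraries in its panel. The authors selected these regions for that difference.

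Leaving out Ex library 2 left 2 of the 5 Ex regions with an adjusted p under 0.05, Hdac4 intron 4 (0.0380) and the Mef2c start (0.0426, limma). Without Sed library 1 the difference at Hdac4 intron 4 was -0.51, at Hdac4 intron 3 -0.41 and at the Mef2a region -0.48, while that at the Mef2c start was -0.79. The intron 3 region then had an adjusted p of 0.0646 (limma), and without Ex library 1 the Mef2c region 97 kb upstream had 0.126. These tests rest on 1 library in an arm, which is assumed to vary like the other group. The mTg region passed in each such test.

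The 3 listed Hdac4 regions each held an accessible Quad site with an E-box, the element of the myogenic factors, within 300 bp. They are shown because they are the Hdac4 sequences inside the regions that were lower, and they were picked after that was seen. In the whole of Hdac4, 9 of 13 accessible windows held an E-box, so its presence in these is not particular to them. The capitals mark CAGCTG.
Hdac4 intron 4, chr1:92016291-92016590, plus strand: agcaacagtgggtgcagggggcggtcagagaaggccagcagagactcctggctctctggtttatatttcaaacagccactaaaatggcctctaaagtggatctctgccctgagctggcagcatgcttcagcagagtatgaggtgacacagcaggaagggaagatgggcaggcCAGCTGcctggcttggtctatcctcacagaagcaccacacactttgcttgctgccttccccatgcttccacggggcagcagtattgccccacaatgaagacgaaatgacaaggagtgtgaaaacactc
Hdac4 intron 3, chr1:92044038-92044337, plus strand: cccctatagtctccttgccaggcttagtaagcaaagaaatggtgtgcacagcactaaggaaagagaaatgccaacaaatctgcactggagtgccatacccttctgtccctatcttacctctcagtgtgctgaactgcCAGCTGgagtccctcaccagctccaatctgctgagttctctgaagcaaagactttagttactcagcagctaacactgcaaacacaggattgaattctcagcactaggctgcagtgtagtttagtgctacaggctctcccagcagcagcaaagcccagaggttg
Hdac4 intron 2, chr1:92130511-92130810, plus strand: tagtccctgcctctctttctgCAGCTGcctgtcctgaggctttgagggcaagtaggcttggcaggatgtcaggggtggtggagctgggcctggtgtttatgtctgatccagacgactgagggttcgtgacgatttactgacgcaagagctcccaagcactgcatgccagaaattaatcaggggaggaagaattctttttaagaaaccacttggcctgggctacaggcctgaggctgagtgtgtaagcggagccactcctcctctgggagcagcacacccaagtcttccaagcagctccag

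The sites of introns 4 and 2 ranked at the 81.3rd and 80.4th percentile of ATAC signal and that of intron 3 at the 51.0th. The intron 4 region held another accessible site, without an E-box. None of these windows held the MEF2 word, which says only that those letters are not there.

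The genes around the switch were described from a list of 36 regulators of MEF2 and the deacetylases (kinases, calcineurin subunits, 14-3-3 proteins, corepressors) and a list of 20 genes known to carry MEF2 sites. Both lists were chosen with earlier results of these data known. A gene counted when any of its regions was listed, so a gene with many regions had more chances. The shares were not adjusted for this and were given no test. Of the 34 regulators with an H3K27ac region in Ex or Sed, 7 had a region listed as hypoacetylated in Ex (20.6%), against 10.6% of all genes, and 0 had a hyperacetylated one (2.34% of all genes). They were the calcium-dependent kinases Camk2a, Camk2b and Camk2d, the calcineurin inhibitors Rcan1 and Cabin1, the 14-3-3 gene Ywhae and the deacetylase Hdac2. The region named for Hdac2 lay 170.5 kb from its start. Near the start of Camk2a, Sed had 10.81 and 10.39 and Ex 9.91 and 9.53, a difference of -0.88. In Ywhae, which codes for a protein that holds phosphorylated deacetylases in the cytoplasm, Sed had 9.31 and 9.20 and Ex 8.49 and 8.16, a difference of -0.93.

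Of 18 genes with MEF2 sites, 7 had a region listed as hypoacetylated in Ex (38.9%, against 10.6% of all genes) and 0 a hyperacetylated one (2.34% of all genes). They were the sarcomere and cytoskeleton genes Myom1, Xirp2, Smpx, Des and Myoz2, the coactivator gene Ppargc1a and Jun. The region named for Jun lay 231.7 kb from its start. In Myom1, a region 19.4 kb into the gene had 9.32 and 8.92 in Sed and 8.46 and 7.87 in Ex (-0.95).

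Of 35 regulators 1 had a region listed as hyperacetylated in mTg (2.86%, against 9.22% of all genes), Ncor1, the corepressor that works with class II deacetylases, where Wt had 6.49 and 6.56 and mTg 7.40 and 7.34 (0.84) at the higher of its 2 regions. Another 4 had a hypoacetylated one (11.4%, against 4.38% of all genes): Camk2a, the kinases Sik1 and Sik3, which phosphorylate class II deacetylases, and Ppp3ca, the catalytic subunit of calcineurin. The regions of Sik1, Sik3 and Ppp3ca lay 67.8, 106.9 and 255.2 kb from their starts. At Sik1, Wt had 6.96 and 7.23 and mTg 6.21 and 6.26 (-0.85). Of the MEF2-site genes 2 of 18 were hyperacetylated (11.1%, against 9.22% of all genes), Mb, the myoglobin gene, with 5.76 and 5.89 in Wt and 6.78 and 6.72 in mTg, and Ppargc1a, and 0 were hypoacetylated. The region named for Ppargc1a lay 421.5 kb from its start.

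Other readouts at the H3K27ac regions were counted as overlaps of at least 1 bp. In Quad, 40 of 70 regions of the 8 genes held an accessible site (57.1%), against 57.2% of all. Mef2a had such a site in 9 of 10 regions, while Hdac4 did in 10 of 21, Mef2c in 12 of 23 and Hdac9 in 4 of 9. MED1, a subunit of the mediator complex that links enhancers to the polymerase, lay in 0 of 49 regions in Dia (4.16% of all), 1 of 62 in EDL (1.12%), 1 of 70 in Quad (3.76%) and 4 of 59 in Sol (5.34%). The EDL site was in Mef2c and the Quad site in the Mef2a region 71.5 kb upstream. In Sol they lay at the promoters of Mef2a and Hdac4, in Hdac9 and upstream of Hdac7.

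NFAT, the factor that calcineurin activates in slow muscle, lay in 0 of 70 regions in Quad (0.0464% of all) and 1 of 59 in Sol (3.02%). The Sol list held 39661 NFAT peaks and the Quad list 485, and whether they were called at the same threshold is not given in the sources used here. That site (chr15:97849321-97849523) was 5 kb upstream of the outer start of Hdac7 and ranked at the 99.8th percentile of the Sol NFAT list. The H3K27ac region around it (chr15:97849223-97849851) was 1 of the 3 regions of Hdac7 seen in Sol alone among the muscles, and it also overlapped a Sol MED1 peak. Among the regions of these genes no other held both factors. MED1 and NFAT were 1 library each, so no test was made.

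The share of H3K27ac regions of the genes that overlapped an H3K4me2 region was 66.1% in EDL (71.5% of all regions), 78.6% in Quad (64.1%), 67.8% in Sol (64.1%) and 55.1% in Dia (60%). It was 64.7% in Sed (63.3%) and 56.4% in Ex (58.6%). With the libraries labelled Wt and mTg it was 53.9% (58.9%) and 41.4% (44.9%). In Quad 20 of 23 Mef2c regions and 15 of 21 Hdac4 regions carried both marks.

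The 2 H3K27ac libraries of a group were not alike at Hdac4 and Hdac9. Replicate 1 was higher at Hdac4 by a median of 0.30 in EDL (14 of 16 regions), 0.48 in Quad (18 of 21), 0.44 in Sol (17 of 18), 0.48 in Dia (13 of 14), 0.80 in Sed (14 of 14) and 0.48 in Ex (10 of 10). In Wt the order was the other way, by -0.34, and in mTg the median was 0.05. At Hdac9 replicate 2 was higher in EDL (by 0.69), Sol (0.34), Dia (0.96) and Ex (0.49), at every region there. The SD of that difference over all regions of a list was 0.30 to 0.44. For H3K4me2 the median at Hdac4 lay between -0.18 and 0.17 in the 8 lists. The listed Hdac4 regions of Ex, where Sed replicate 1 was the highest of the 4 libraries, carry this spread.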

How the data were processed

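Per the labels and methods, the authors aligned reads with Bowtie to mm10, kept 1 tag per position in HOMER, and made 1 histone peak call per group from its 2 libraries and the input (HOMER with DESeq2, 2-fold, FDR of 0.05). The tag columns the authors deposited are log2 values, taken here to be the regularized logarithm of DESeq2, normalized within each list. The p-value columns hold the authors' adjusted p-values and served only as a filter. The peak score deposited by the authors served to rank factor peaks and to even out list sizes. The deposited ATAC signal gives tags scaled to a common library size. Deposited fold changes of the authors' own comparisons were not used. Read counts were not used here, so no count test was run.

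Members and gene lists were chosen with earlier results of these data known. All 8 members were named, with their promoter region, every differential region and the widest differences of each pair of lists. The strongest distal H3K27ac region was described where one carried the name of the gene, which was not so for Mef2b and Hdac5. Each region was matched to 1 region of another list where they covered at least 50% of one another, and levels were divided by width. Levels in the 4 differential lists were tested with limma 3.58.1 (R 4.3.3, two-sided, Benjamini-Hochberg adjusted over the list), after a test on simulated data. The labels do not say whether replicates share a litter or day. Python 3.11.15 with pandas 2.3.3 and numpy 2.4.6 did the rest. Words were searched in windows of 300 bp and RefSeq promoters of 250 bases. The exercise and PGC1a ATAC lists and footprints, whose build is not given in the sources used here, were not used. The sequence of 1 further window is not reported here.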

Additional observations from a re-analysis of the deposited data

How the results depend on the processing

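Of 251 recomputed values, 182 stayed within the limits set for them, 64 counts or shares moved by over 1.5 times or out of the interval of the share, and 5 single regions lost their call. No listed region changed direction. Under a stricter limit on the authors' adjusted p-value (0.001), the H3K27ac regions of the genes numbered 253 (477 as reported) and the H3K4me2 regions 217 (455), of the regions listed as hypoacetylated 1 was left for Ex and 0 for mTg, and with equal list sizes H3K4me2 had 303. At a reciprocal overlap of 50% from Quad, 25.7% of H3K27ac and 17.4% of H3K4me2 regions were in all 4 muscles. With the 50% of each factor list that scored highest, MED1 in Quad lay in 0 regions.

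Counts of regions called apart were small and moved with most settings. With the level of the whole region, not divided by width, H3K27ac called 6 apart between Sol and Quad, 3 between Dia and Quad, 3 between EDL and Quad, 6 between EDL and Sol, 5 between Ex and Sed and 2 between mTg and Wt, and H3K4me2 called 1 between Ex and Sed, 1 between the libraries labelled mTg and Wt, 3 between Quad and Sed and 1 between Quad and labelled Wt. This setting also moves with the width of a call. Without centring, H3K27ac called 2 between Dia and Quad, 2 between EDL and Quad, 2 between EDL and Sol and 3 between Quad and Wt, and H3K4me2 2 between Quad and Sed and 4 between Quad and labelled Wt. At 80% overlap 0 H3K4me2 regions were left apart between Sol and Quad, Quad and Sed, or Quad and labelled Wt.

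Without 1 library, H3K27ac called 0 to 2 between Sol and Quad, 0 to 2 between Dia and Quad, 0 to 1 between EDL and Quad, 0 to 2 between EDL and Sol, 0 to 4 between Ex and Sed, 0 to 1 between mTg and Wt, 0 to 2 between Quad and Sed and 0 to 1 between Quad and Wt. H3K4me2 called 1 to 4 between Sol and Quad, 0 to 2 between labelled mTg and Wt, 1 to 2 between Quad and Sed and 2 to 3 between Quad and labelled Wt. The Hdac4 call of Ex against Sed was lost without Ex library 2 or Sed library 1 (0 in each). Of the 5 listed Ex regions 2 to 5 passed limma, and the mTg region passed in each case (1). The cause of these moves was not tested.

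With the replicate number as a block, 5 Ex regions and 1 mTg region passed, as in the fit without it, and the crossed pairing, added after the data were seen, also left 1 for mTg. Deviations of same-numbered libraries correlated by 0.106 in the hypoacetylated list of Ex and -0.242 in that of mTg. In the hyperacetylated lists the values were 0.144 for Ex and -0.039 for mTg. With values this low and of both signs, the numbers were not taken to pair the samples. With 2 libraries a group and lists normalized on their own, differences under 2-fold could not be called between lists.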
